A study of Mus musculus with 2 samples.

Results

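Natural killer (NK) cells of the lung are described here from 1 single-cell RNA library, in which 65 of 8194 kept lung cells (0.793%, exact Clopper-Pearson 95% interval 0.613 to 1.01) met a rule set on RNA counts. Lung barcodes entered with 200 genes or more, if mitochondrial genes made up no more than 10% of their UMIs (unique molecular identifiers, 1 per captured RNA molecule). An NK cell then had at least 2 UMIs summed over Ncr1, Klrb1c, Klra8 and Klra4, no UMI of Cd3e, Cd3d, Cd3g, Cd8a, Cd8b1 or Cd79a, and fewer than 5 UMIs of Lyz2. The cells set against them were 222 CD8 T cells of the same library, chosen by at least 1 UMI of Cd8a or Cd8b1 and at least 1 of Cd3e. The study made 1 library from lung and 1 from gastrocnemius muscle, each of cells held on CD45 magnetic beads after Liberase TL and DNase I digestion, with the 10x Genomics 5' v2 kit on an Illumina NovaSeq sequencer. In the labels the animals of both libraries are TB mice and their genotype entry reads CAC mouse model, with no treatment, strain, age or number of mice given. The lung library held 34751225 UMIs over 8481 barcodes and the muscle library 14056163 UMIs over 5547 barcodes. No muscle cell of 2243 kept met the NK rule, which allows a share of up to 0.164% by the exact interval (0.134% by a limit of 3 cells). Another 2 muscle cells held 1 receptor UMI. Of the 2243 cells 296 held Ptprc, the CD45 gene, and the mitochondrial limit had removed 59.5% of muscle barcodes. The libraries shared 64 barcodes, and none of the 65 NK cells carried one of these. With 1 library per tissue there was no replicate, so no test was possible, and every interval below is a 95% interval for counting error only.

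NK cells are innate lymphocytes that kill infected, stressed or transformed cells without a rearranged antigen receptor. They balance signals from activating receptors, which recruit adaptor proteins with tyrosine motifs, against inhibitory receptors that read MHC class I on the target. Killing itself runs through granules that hold perforin and granzymes, a machinery they share with CD8 T cells, and in the lung most NK cells circulate through the capillary bed.

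The receptor rule gathered more than 1 kind of cell. Of the 65 cells, 5 carried epithelial markers, with 23 to 131 UMIs of Epcam and 11 to 499 UMIs of Krt18 each, against at most 3 UMIs of both genes together in any other NK cell. Those 5 cells held 21357 to 63586 UMIs each and 52.9% of all UMIs of the 65 cells. They met the rule almost only through Klra4, with 19 UMIs of it in 5 cells, 2 UMIs of Klrb1c in 1 cell and none of Ncr1 or Klra8. Ptprc, the gene of CD45, gave 2 UMIs in all 5 together. Among the 131 kept lung cells with at least 10 UMIs of Epcam plus Krt18, 11 held Klra4, at 6.64 CPM (counts per 1000000 UMIs, 4.29 to 9.80). Another 4 NK cells held 41 to 236 UMIs of the neutrophil genes S100a8 plus S100a9, against at most 5 in the other cells without epithelial markers. In a score that compares each cell with simulated doublets, 3 of these 4, 0 of the 5 and 2 of the remaining 56 cells lay among the 556 highest lung cells.

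**Figure D1:**
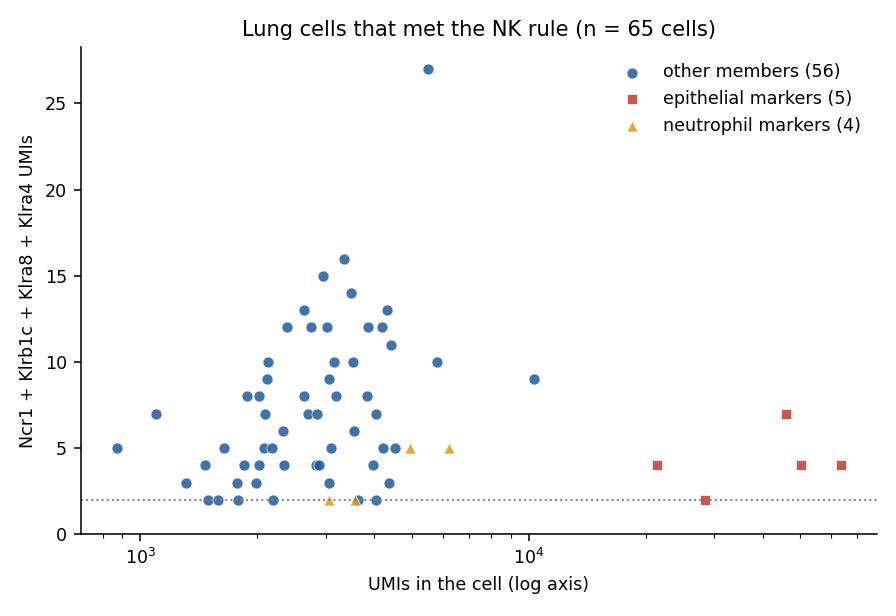
UMIs per cell (x axis, log scale) and summed UMIs of the 4 receptor genes of the rule (y axis) for the 65 lung cells that met the NK rule, with the limit of 2 UMIs as a dotted line. The 5 cells with epithelial markers (red squares) lie at 21357 UMIs or more, and the 56 others without added markers (blue) at 10298 or fewer.

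The CD8 T cells were mixed too, with 29 at or above 5 UMIs of Lyz2, 10 with Cd79a, 19 with at least 40 UMIs of S100a8 plus S100a9 and 0 with epithelial markers. In the doublet score 41 of the 222 (18.5%) lay among the highest lung cells, against 6.79% of kept lung cells. Of the 179 used below 9 did (5.03%). Levels below therefore come from 56 NK cells (168465 UMIs, median 2841 per cell) and 179 CD8 T cells (776713 UMIs, median 3784), both with Cd79a at 0, Lyz2 under 5, Epcam plus Krt18 under 10 and S100a8 plus S100a9 under 40. These limits were chosen after the data were seen, and the log2 ratio of the 65 over the 222 cells by the rule stands in brackets as "by rule". A gene counted as higher or lower by size if the 2 CPM values were 2-fold or more apart, the interval of the ratio excluded 1.5-fold, and the higher population had 20 UMIs or more in 10 cells or more. Called genes numbered 185 higher (2.85%) and 227 lower (3.5%) in NK cells of 6483 with at least 20 UMIs, with a median log2 ratio of -0.01. By the rule alone 263 were higher (3.1%) and 598 lower (7.04%) of 8497, with a median of -0.06. Leaving out just the 5 cells with epithelial markers gave 196 higher (2.5%) and 259 lower (3.3%) of 7837. The comparison by the rule and that of the 56 cells shared 72 higher genes, which is 27.4% of those by the rule and 38.9% of those in the 56 cells, and 176 lower genes, 29.4% and 77.5%. Of the 263 genes higher by the rule, 187 had more than 50% of their NK counts in the 5 cells with epithelial markers. Both populations were chosen from the RNA compared here, and a gene can reach 20 UMIs through 1 of them alone. These values therefore describe the populations and test nothing.

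The 4 receptors of the rule are shown as the values that chose the cells. Klra8, which encodes the activating receptor Ly49H, stood at 807 CPM (677 to 955) with 136 UMIs in 39 of 56 NK cells. Klra4, the gene of the activating receptor Ly49D, gave 124 UMIs in 33 cells, Klrb1c, which encodes NK1.1, 89 UMIs in 42 cells and Ncr1, the gene of the natural cytotoxicity receptor NKp46, 64 UMIs in 36 cells. Per cell the highest counts were 9 UMIs of Klra8, 16 of Klra4, 6 of Klrb1c and 6 of Ncr1. In CD8 T cells the rule did not fix these genes, and the counts there were 6, 0, 3 and 0 UMIs in the same order. Just inside the limit, the 9 of the 65 cells with exactly 2 receptor UMIs, epithelial and neutrophil markers included, held Gzma at 1427 CPM and Ccl5 at 2352 CPM. Just outside it, 29 cells that met all other terms with 1 receptor UMI held Gzma at 76.3 CPM and Ccl5 at 379 CPM. Without cells with epithelial or neutrophil markers the values were 4272 CPM of Gzma and 6916 CPM of Ccl5 in 6 cells inside the limit, and 282 CPM and 1398 CPM in 22 cells outside it. A further 17 cells with at least 2 receptor UMIs were kept out, 9 for CD3 genes, 1 for Cd8a or Cd8b1, 2 for Cd79a and 8 for Lyz2, with some failing more than 1 term.

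The promoters of the activating pair Klra8 and Klra4 are printed because the sequences are closely alike. How far reads of the pair can be told apart is described after them, from transcripts. The windows run from 250 bases before to 50 after the gene's start on the minus strand of chromosome 6 in RefSeq's GRCm38.p6, at chr6:130129849-130130148 for Klra8 and chr6:130067222-130067521 for Klra4, while the counts were made on GRCm39. Capitals mark runs of at least 12 bases that are equal in both.
Klra8: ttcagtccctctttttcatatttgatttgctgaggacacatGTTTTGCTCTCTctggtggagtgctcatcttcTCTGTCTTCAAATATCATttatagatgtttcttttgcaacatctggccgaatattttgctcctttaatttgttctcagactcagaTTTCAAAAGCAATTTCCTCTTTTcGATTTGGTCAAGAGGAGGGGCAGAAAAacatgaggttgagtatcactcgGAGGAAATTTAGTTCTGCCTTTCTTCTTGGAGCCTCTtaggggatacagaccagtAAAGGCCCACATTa
Klra4: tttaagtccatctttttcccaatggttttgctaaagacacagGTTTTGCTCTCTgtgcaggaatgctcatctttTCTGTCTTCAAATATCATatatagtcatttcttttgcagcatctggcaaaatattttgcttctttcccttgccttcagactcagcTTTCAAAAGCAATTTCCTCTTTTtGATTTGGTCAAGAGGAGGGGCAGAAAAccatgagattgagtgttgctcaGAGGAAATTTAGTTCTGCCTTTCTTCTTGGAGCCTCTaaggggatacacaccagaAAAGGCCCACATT
Of 299 aligned bases 259 were equal (86.6%), and 6 such runs held 130 bases, the longest 37. Over the first 300 bases of their longest GENCODE transcripts, the end that a 5' kit reads, 0 of 251 words of 50 bases in Klra4 occurred in another Ly49 gene. For Klra8 74.9% of the words occurred in another, all of them in the pseudogene Klra14-ps. Klra14-ps stood at 326 CPM (246 to 425) in NK cells, so the split of reads between Klra8 and Klra14-ps is uncertain.

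The other Ly49 genes are mostly inhibitory receptors for MHC class I. Of 10 listed, 3 reached 20 UMIs and all 3 were called higher, beside 2.85% of all tested genes. Their median log2 ratio was 5.57 against -0.01 over all tested genes. Klra7 and Klra9 reached 20 UMIs only through NK cells, so their calls follow from that filter and are no separate evidence. Klra7, the gene of Ly49G, stood at 291 CPM (215 to 385) with 49 UMIs in 18 NK cells, against 1 UMI in CD8 T cells, a log2 ratio of 7.82 (5.27 to 13.15; by rule 7.34). Klra9, the gene of Ly49I, gave 31 UMIs in 13 NK cells against 0 UMIs in CD8 T cells. That is 47.6-fold higher against a floor of 3 UMIs over the CD8 T cells, with a log2 interval from 5.19. Klra13-ps, a pseudogene of the family, stood at 849 CPM in NK cells, against 37.3 CPM in CD8 T cells (log2 4.51, 3.92 to 5.14; by rule 3.62). Klra3, the gene of Ly49C, gave 16 UMIs in 9 NK cells and Klra1, the gene of Ly49A, 14 UMIs in 6, against 0 in CD8 T cells for both. Words of 50 bases in the first 300 that occurred in another Ly49 gene made up 0% for Klra7 and Klra1. The share was 0.40% for Klra13-ps, 4.78% for Klra9 and 7.97% for Klra3. Reads of these close relatives may still be shared in part, so single Ly49 levels carry an uncertainty that the intervals leave out.

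Detected Ly49 genes differed between NK cells, and since Klra8 and Klra4 belong to the rule, their classes describe the choice of cells too. Both Klra8 and Klra4 were seen in 26 of 56 cells (46.4%, 33.0 to 60.3), Klra8 alone in 13 (23.2%, 12.98 to 36.4), Klra4 alone in 7 (12.5%, 5.18 to 24.1) and neither in 10 (17.9%, 8.91 to 30.4). Over the 6 genes Klra1, Klra3, Klra4, Klra7, Klra8 and Klra9, 5 cells held none, 10 held 1, 20 held 2, 16 held 3 and 5 held 4. The median depth of the classes by number ran from 2410 to 3555 UMIs, and an undetected gene at such depth is not an absent one. Ncr1 and Klrb1c were both seen in 29 cells, Ncr1 alone in 7, Klrb1c alone in 13 and neither in 7.

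**Figure D2:**
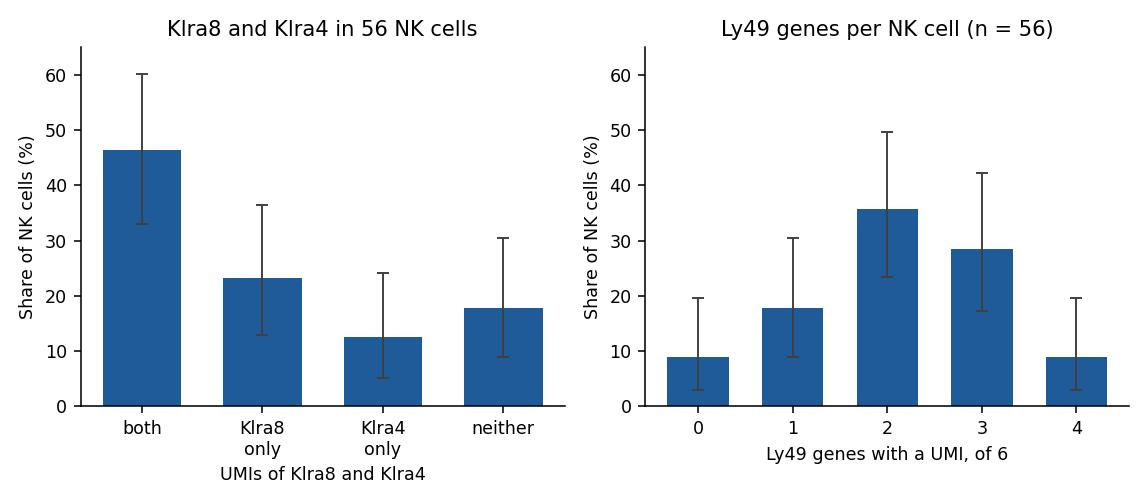
Share of the 56 NK cells (y axis, percent) by UMIs of Klra8 and Klra4 (left) and by the number of 6 Ly49 genes with a UMI (right), with exact 95% intervals of counting error as bars. Cells with both Klra8 and Klra4 are the commonest class at 46.4%, and 20 of 56 cells held 2 of the 6 genes.

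Receptors of the CD94/NKG2 and related lectin-like families were also high in NK cells, 7 of 10 tested called higher and 1 lower, with a median log2 ratio of 3.29. Klrk1, which encodes the activating receptor NKG2D, stood at 433 CPM in NK cells, against 23.2 CPM in CD8 T cells (log2 4.22, 3.47 to 5.06; by rule 3.22). Klrc2, the gene of the activating NKG2C, gave 56 UMIs in 34 NK cells against 9 UMIs in 5 CD8 T cells, a log2 ratio of 4.84 (3.82 to 6.04; by rule 3.52). Klrc1, the gene of the inhibitory NKG2A, differed less, at 208 CPM in NK cells against 70.8 CPM in CD8 T cells (log2 1.55, 0.90 to 2.19; by rule 0.92). Their shared partner Klrd1, the gene of CD94, was not called, at 641 CPM in NK cells against 354 CPM in CD8 T cells (log2 0.86, 0.52 to 1.18). Klre1 stood at 605 CPM (494 to 735) in NK cells, against 52.8 CPM (37.9 to 71.6) in CD8 T cells, and its partner Klri2 at 344 CPM against 41.2 CPM. Klrb1a and Klrb1f, relatives of the NK1.1 gene, gave 30 and 26 UMIs in NK cells, against 3 and 2 UMIs in CD8 T cells. Klrh1 went the other way, with 0 UMIs in NK cells and 77 UMIs in 16 CD8 T cells. That is 5.57-fold lower in NK cells against a floor of 3 UMIs over the NK cells, with a log2 interval up to -2.14. Of 9 other activating receptors 1 was called higher and 1 lower, beside the same shares of all tested genes (list median log2 -0.16; by rule -1.17). Cd244a, the gene of 2B4, was higher at 196 CPM in NK cells against 25.7 CPM in CD8 T cells. Cd226, the gene of DNAM-1, was lower at 41.6 CPM in NK cells against 247 CPM in CD8 T cells.

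Gzma, which encodes granzyme A, stood at 7224 CPM (6824 to 7642) in NK cells, against 1348 CPM (1268 to 1432) in CD8 T cells, a log2 ratio of 2.42 (2.30 to 2.54; by rule 1.80). It was seen in 50 of 56 NK cells (89.3%, 78.1 to 96.0), against 17 of 179 CD8 T cells (9.50%, 5.63 to 14.8). With each cell thinned to 1000 UMIs the shares were 80% of NK cells and 7.26% of CD8 T cells, after 1 NK cell and 0 CD8 T cells under that depth were left out. In 360 lung B cells, which should lack the gene, 1.11% held a UMI of it at a median depth of 2533 UMIs. Per cell, Gzma ran from 0 to 123 UMIs in NK cells with a median of 14.5, while its 1047 UMIs in CD8 T cells came from those 17 cells, which overlap the NK range. Prf1, the gene of perforin, stood at 505 CPM (403 to 624) in NK cells, against 73.4 CPM (55.6 to 95.1) in CD8 T cells (log2 2.78, 2.28 to 3.29; by rule 2.00). Gzmb, the gene of granzyme B, stood at 522 CPM in NK cells, against 81.1 CPM in CD8 T cells (log2 2.69, 2.20 to 3.18; by rule 1.79).

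Of 17 tested genes of granules and killing, 6 were called higher, 1 lower and 10 neither, beside 2.85% higher and 3.5% lower of all tested genes. Their median log2 ratio was 0.49 (by rule 6 higher and 3 lower of 18, median 0.11). The granzyme inhibitors Serpinb9 and Serpinb6b were among the higher ones. Serpinb9 stood at 285 CPM in NK cells against 29.6 CPM in CD8 T cells, and Serpinb6b at 332 CPM against 68.2 CPM. The death ligands went opposite ways. Fasl was higher at 142 CPM in NK cells against 45.1 CPM in CD8 T cells (log2 1.66; by rule 0.82, not called), and Tnfsf10, the gene of TRAIL, was lower at 11.9 CPM against 90.1 CPM (log2 -2.92; by rule -3.69). Nkg7, a granule membrane gene of both lineages, was not called, at 2564 CPM in NK cells against 1822 CPM in CD8 T cells, and its sign turned by rule (log2 0.49; by rule -0.28). Gzmk, which marks some T cells, gave 1 UMI in NK cells against 36 UMIs in CD8 T cells.

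**Figure D3:**
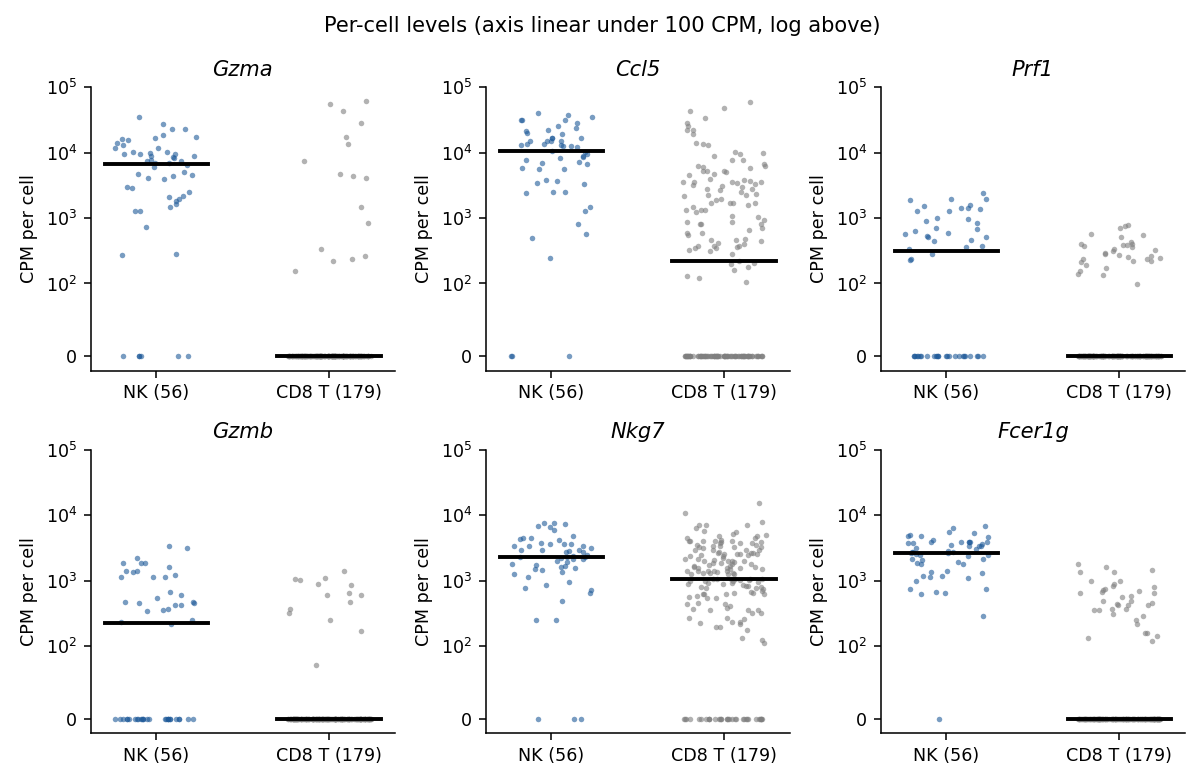
Level per cell (y axis, CPM, linear under 100 and log above) of 6 genes in 56 NK cells (blue, left) and 179 CD8 T cells (grey, right), with the median as a black line. Gzma has a median of 6637 CPM in NK cells and 0 in CD8 T cells, and a few CD8 T cells reach the NK range.

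Cma1, the mast cell chymase gene, had been named as a marker of these cells from the same data. It gave 19 UMIs in 14 NK cells (113 CPM, 67.9 to 176) against 0 UMIs in CD8 T cells. That is 29.2-fold higher against a floor of 3 UMIs, with a log2 interval from 4.43. Of its 32 UMIs in kept lung cells 59.4% lay in the 56 NK cells. The mast cell genes Cpa3, Fcer1a, Mcpt4 and Tpsb2 and the basophil gene Mcpt8 were at 0 in these 56 cells. In the 56 cells Cma1 missed the 20 UMIs that a call needs.

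For a view of sequence at these genes, windows of the same length were searched on both strands for the RUNX core TGTGGTT, since RUNX factors act in killer lymphocytes, and for the T-box core GGTGTGA, since Eomes and T-bet do. The RUNX core was in 5.27% and the T-box core in 3.98% of 32851 RefSeq windows. Ncr1, Gzma and Gzmb held 1 match of the RUNX core each, beginning 176, 51 and 34 bases before the start, and Klrb1c, Klra8, Klra4, Prf1, Cma1 and Eomes held none. None of these windows held the T-box core. The windows of Ncr1 (chr7:4337465-4337764, plus strand) and Gzmb (chr14:56262285-56262584, minus strand, both GRCm38.p6) are printed as a receptor and a granule gene with a match, in capitals. A match describes letters and is not a bound site.
Ncr1: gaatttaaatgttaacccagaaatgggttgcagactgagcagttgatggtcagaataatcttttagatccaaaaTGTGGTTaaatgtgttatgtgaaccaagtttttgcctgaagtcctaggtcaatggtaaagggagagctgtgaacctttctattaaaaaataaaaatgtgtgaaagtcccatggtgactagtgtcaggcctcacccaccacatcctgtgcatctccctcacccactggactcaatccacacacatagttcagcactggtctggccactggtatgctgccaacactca
Gzmb: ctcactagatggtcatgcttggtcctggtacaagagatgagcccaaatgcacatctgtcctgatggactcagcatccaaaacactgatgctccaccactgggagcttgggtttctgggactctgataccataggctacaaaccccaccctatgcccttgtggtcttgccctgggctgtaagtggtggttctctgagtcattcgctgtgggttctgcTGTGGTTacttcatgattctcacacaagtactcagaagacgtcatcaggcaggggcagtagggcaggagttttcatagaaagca

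Fcer1g and Tyrobp, the genes of the adaptors FcR gamma and DAP12 that carry signals for NKp46 and for activating Ly49 receptors, were called higher in NK cells. Fcer1g stood at 2493 CPM (2260.3 to 2743) in NK cells, against 124 CPM (100.1 to 151) in CD8 T cells (log2 4.33, 4.01 to 4.67; by rule 1.06), in 55 of 56 NK cells and 38 of 179 CD8 T cells. Tyrobp stood at 2564 CPM in NK cells, against 167 CPM in CD8 T cells (log2 3.94, 3.65 to 4.23; by rule 0.70, not called). Both genes are also used by myeloid cells, and in B cells 28.9% of cells held Fcer1g and 39.7% Tyrobp. The summed neutrophil markers stood at 415.5 CPM in NK cells and 410.7 CPM in CD8 T cells, and those of monocytes and macrophages at 196 CPM and 180.2 CPM, with Siglecf and Adgre1 at 0 in NK cells. Their part in these results was not tested. The kinase gene Syk and its target Plcg2 were called higher too, but by rule Syk was at -0.64 and Plcg2 at 0.62 on the log2 scale, neither called. Lat, the scaffold of the T cell receptor, was lower at 29.7 CPM in NK cells against 333 CPM in CD8 T cells (log2 -3.49; by rule -4.48). Hcst, the gene of DAP10, which NKG2D uses, was not called (log2 -0.06), and neither were the T cell receptor signalling genes Cd247, Zap70 and Lck, at -0.28, -0.89 and -1.03, which by rule were called lower. In all 4 of 14 tested adaptors and kinases were higher and 1 lower, beside 2.85% and 3.5% of all tested genes. Their median log2 ratio was 0.74, while by rule 1 was higher and 4 were lower with a median of -0.41.

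Of 14 tested cytokine receptor genes 4 were called higher and 4 lower, beside 2.85% and 3.5% of all tested genes. The median log2 ratio was 0.04 (by rule 3 and 6, median -0.50). The higher ones were Il2rb, Il12rb2, Il18rap and Ifngr1, which encodes a chain of the interferon gamma receptor (log2 1.33; by rule 0.57). Il2rb, the receptor chain shared by IL-2 and IL-15, stood at 1353 CPM (1183 to 1541) in NK cells, against 360.5 CPM (319.5 to 405) in CD8 T cells (log2 1.91, 1.65 to 2.17; by rule 1.10). Il12rb2, a chain of the IL-12 receptor, gave 52 UMIs in 24 NK cells against 14 UMIs in 9 CD8 T cells (log2 4.10, 3.23 to 5.06; by rule 3.42). Il18rap, a chain of the IL-18 receptor, stood at 487 CPM in NK cells against 91.4 CPM in CD8 T cells (log2 2.41; by rule 1.32). Il7r went the other way at 23.7 CPM in NK cells against 327 CPM in CD8 T cells (log2 -3.78; by rule -4.68), with Il2ra and Il21r also lower and Il1rl1 at 0 UMIs in NK cells against 48 UMIs in 11 CD8 T cells. Partner chains were not called, with Il2rg at log2 -0.41 (by rule -1.31, called lower) and Il18r1 at 0.58.

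Among secreted factors Ccl5, a chemokine of killer lymphocytes, was the most abundant. It stood at 11183 CPM (10684 to 11700.0) in NK cells, against 2605 CPM (2492 to 2721) in CD8 T cells (log2 2.10, 2.01 to 2.19; by rule 1.42), in 53 of 56 NK cells and 97 of 179 CD8 T cells. Tgfb1 was the other gene called higher and Ltb was called lower, of 10 tested, beside 2.85% and 3.5% of all tested genes. The median log2 ratio of these 10 was -0.23 (by rule 1 higher and 4 lower, median -0.79). Ifng, the gene of interferon gamma, gave 20 UMIs in 9 NK cells and 24 UMIs in 12 CD8 T cells, and was not called because fewer than 10 NK cells held it. Xcl1, which draws cross-presenting dendritic cells, was at 528 CPM in NK cells against 767 CPM in CD8 T cells and was not called (log2 -0.54; by rule -1.41, called lower). Ccl3 and Ccl4 were not called, at log2 0.49 and -0.27, whereas by rule both were called lower at -2.38 and -1.28.

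**Figure D4:**
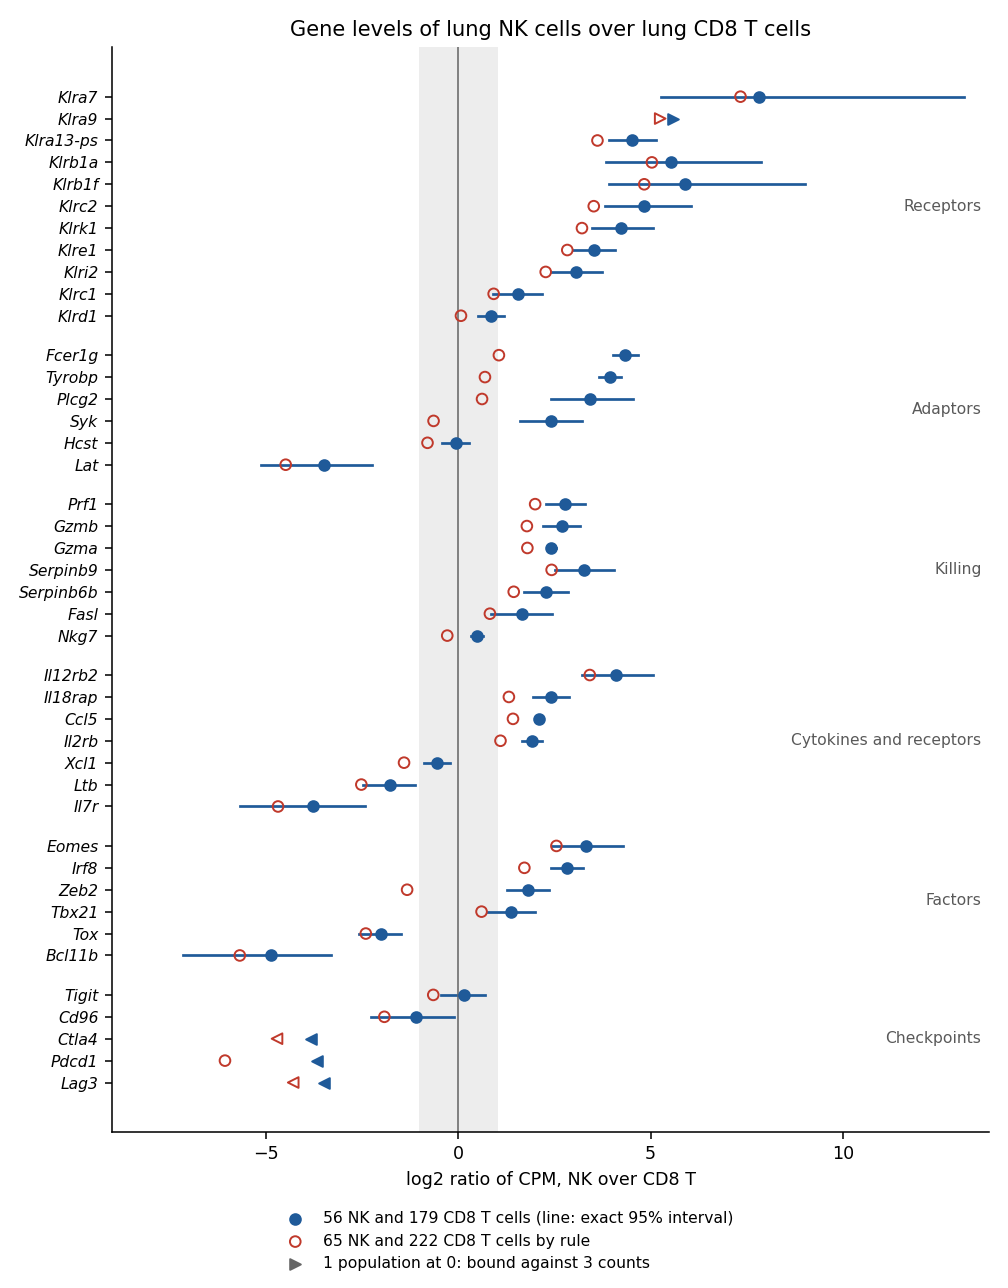
Log2 ratio of CPM, NK over CD8 T cells (x axis), for genes of 6 groups, in 56 NK and 179 CD8 T cells (filled, with exact 95% intervals of counting error) and in all 65 and 222 cells by the rule (open). Triangles are bounds against 3 UMIs where 1 population held none, the grey band is less than 2-fold, and Fcer1g moves from 4.33 in the 56 cells to 1.06 by the rule.

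Of the transcription factors that shape NK cells, 5 of 18 tested were called higher and 3 lower, beside 2.85% and 3.5% of all tested genes. Their median log2 ratio was 0.28, while by rule 2 were higher and 8 lower with a median of -0.95. Eomes, which marks conventional NK cells, stood at 208 CPM (145 to 289) in NK cells, against 20.6 CPM (11.8 to 33.5) in CD8 T cells (log2 3.33, 2.44 to 4.29; by rule 2.55). Irf8 stood at 766 CPM in NK cells, against 108 CPM in CD8 T cells (log2 2.82; by rule 1.72), though B cells held it at 283 CPM. Tbx21, the gene of T-bet, and Id2 were higher by log2 1.37 and 1.01, and by rule were not called. Zeb2, a factor of late NK maturation, was higher at 315 CPM in NK cells against 88.8 CPM in CD8 T cells (log2 1.82) but was called lower by rule at -1.33. With limits on Cd79a and Lyz2 set in the CD8 T cells alone, of which 29 had passed the Lyz2 limit, the Zeb2 ratio was 0.53. Tox stood at 189.9 CPM in NK cells, against 765 CPM in CD8 T cells (log2 -2.01; by rule -2.40), and Ikzf2 and Tox2 were also lower. Runx3 did not differ by size, at 285 CPM in NK cells and 294 CPM in CD8 T cells.

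Maturation genes were read thinly at this depth. A UMI of Itgam without Cd27, the late pattern in mouse NK cells, was seen in 13 cells, Cd27 without Itgam in 9, both in 2 and neither in 32, with median depths of 3145, 2698, 2384 and 2841 UMIs. Gzma stood at 7714 CPM (6898 to 8600) in the 13 cells with Itgam and at 3335 CPM (2663 to 4123) in the 9 with Cd27, while Xcl1 stood at 356 CPM (199 to 587) and 1177 CPM (794 to 1680). In the 32 cells with neither, Gzma stood at 7859 CPM. Prf1 stood at 285 CPM (147 to 498) with Itgam and 628 CPM (359 to 1019) with Cd27, and Gzmb at 498 CPM and 549 CPM, so these late-stage genes were not higher with Itgam. These classes rest on few UMIs of 1 library and cells are no replicates, so the values are given without a test. S1pr5, a receptor for egress from tissue, gave 15 UMIs in 10 NK cells against 0 UMIs in CD8 T cells, and 93.8% of its 16 UMIs in kept lung cells lay in NK cells. Klrg1, another late gene, gave 9 UMIs in 8 NK cells and was not called. Of 10 tested late-stage genes 3 were higher and 0 lower (median log2 1.25), and of 11 early-stage genes 2 were higher, Ctla2a among them, and 3 lower, Thy1, Il7r and Ltb (median -0.54). The shares over all tested genes were 2.85% higher and 3.5% lower.

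Of 20 tested adhesion and homing genes 7 were called higher and 2 lower, beside 2.85% and 3.5% of all tested genes. Their median log2 ratio was 0.51 (by rule 1 and 6, median -0.43). Itga2, which encodes the NK integrin CD49b, gave 36 UMIs in 22 NK cells against 6 UMIs in 6 CD8 T cells (log2 4.79, 3.53 to 6.33; by rule 4.99). Of its 70 NK UMIs by rule, 33 (47.1%) lay in the cells with epithelial markers. Cxcr6, a receptor of tissue-resident lymphocytes, had 0 UMIs in NK cells against 184 UMIs in 65 CD8 T cells. That is 13.3-fold lower in NK cells against a floor of 3 UMIs, with a log2 interval up to -3.42. Itgae, the gene of CD103, was lower at log2 -3.52. Ccr2, Cxcr4, Itgal and Itgax were called higher in the 56 cells, with log2 ratios of 2.73, 1.54, 1.13 and 3.79, and by rule none of these 4 passed, at 0.14, 0.18, 0.30 and 0.45. Of 9 listed genes of type 1 innate lymphoid cells, tissue relatives of NK cells, 5 were lower and 0 higher (median log2 -2.44). These 5 reached 20 UMIs only through CD8 T cells, so their calls are no separate evidence. Cd200r1 and Cxcr6 had no UMI in NK cells, Rora stood at 53.4 CPM in NK cells against 385 CPM in CD8 T cells, and Itga1 gave 1 UMI in NK cells. The ILC2 genes Il13, Il5, Il17rb and Il1rl1 and the ILC3 genes Il22, Il17a and Il23r had no UMI in these 56 cells. Of 3 tested ILC2 genes Il1rl1 and Rora were lower and Gata3 was not called, and none of these ILC3 genes reached 20 UMIs.

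Inhibitory checkpoint receptors were low in the NK cells. Pdcd1, the gene of PD-1, had 0 UMIs in 56 NK cells, against 177 UMIs in 72 CD8 T cells. That is 12.8-fold lower in NK cells against the same floor of 3 UMIs, with a log2 interval up to -3.36. Ctla4 had 0 UMIs against 195 UMIs, Lag3 0 against 154 and Havcr2, the gene of TIM-3, 0 against 34. Of 9 tested checkpoint genes 5 were lower and 0 higher, beside 3.5% and 2.85% of all tested genes, with a median log2 ratio of -1.30. Tigit, Cd96, Lilrb4a and Cish were not called. Tigit stood at 196 CPM (135 to 275) in NK cells and 178 CPM (149 to 209.9) in CD8 T cells (log2 0.14; by rule -0.65), in 21 of 56 NK cells and 59 of 179 CD8 T cells. Cd96, which shares a ligand with Tigit, was at log2 -1.10 (by rule -1.92, called lower), and Lilrb4a at 0.26 on 7 UMIs in 2 NK cells.

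T cell genes other than those of the rule were low in NK cells, 8 of 11 tested called lower and 0 higher (median log2 -2.60). Among all tested genes 3.5% were lower and 2.85% higher. Themis, a T cell receptor signalling gene, gave 1 UMI in NK cells against 483 UMIs in 125 CD8 T cells, and Bcl11b, a T lineage factor, 3 UMIs against 405. Trac and Trbc2 were lower by log2 -3.74 and -2.72, Cd5, Cd6 and Cd4 were at 0, and Icos gave 1 UMI. Trbc1 was not called at 202 CPM (139.8 to 282) in NK cells and 239 CPM (206 to 276) in CD8 T cells, in 26 of 56 NK cells. Trdc, the delta chain constant gene, gave 17 UMIs in 14 NK cells against 4 UMIs in 3 CD8 T cells. Among the lowest genes by the naming rule stood Tnfrsf4, a costimulatory receptor (log2 -5.01), Penk, the proenkephalin gene (0 UMIs in NK cells against 368 in 29 CD8 T cells), and the chemokine gene Ccl1 (log2 -4.08), of which 8 UMIs in NK cells came from 1 cell. Among the highest stood Clnk, an immune adaptor, at 279 CPM in NK cells against 1.29 CPM in CD8 T cells (log2 7.76; by rule 6.28), Adamts14 at 451 CPM against 16.7 CPM (log2 4.75; by rule 3.88), Rbpms (log2 4.79), Aoah (log2 5.91), Gas7 (log2 4.62) and Lrmda (log2 4.26; by rule 0.57, not called). By rule, Krt7, a keratin gene, ranked second of the higher genes at log2 6.65, whereas in the 56 cells it gave 16 UMIs and was not called.

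Several gene groups turned with the choice of cells. MHC class II genes H2-Aa, H2-Ab1 and H2-Eb1 were called higher in the 56 NK cells, at 219.6, 232 and 154 CPM against 78.5, 66.9 and 51.5 CPM in CD8 T cells, but lower by rule at log2 -1.94, -2.04 and -2.15. B cells held them at 3231, 2402 and 2279 CPM, while Cd79b and the 5 dendritic cell markers were at 0 in the 56 NK cells. All 6 B and plasma cell markers together stood at 35.6 CPM in NK cells (6 UMIs) and 18.0 CPM in CD8 T cells (14 UMIs). The part of RNA from other cells was not tested. MHC class I did not differ by size, with B2m at 2190.4 CPM in NK cells and 2135 CPM in CD8 T cells. Cell cycle genes were lower in 7 of 12 tested and higher in 0, beside 3.5% and 2.85% of all tested genes (median log2 -1.23). Mki67 was at 1 UMI in NK cells against 94 UMIs in 25 CD8 T cells and Top2a at 2 against 123. By rule 3 of 13 were lower, and Stmn1 and Tubb5 turned in sign to 0.67 and 0.34 from -1.70 and -1.40 in the 56 cells. No cathepsin of 10 tested was called in the 56 cells. Ctsl, the gene in the study's title, gave 6 UMIs in 5 NK cells (35.6 CPM, 13.1 to 77.5) and 30 UMIs in 21 CD8 T cells (38.6 CPM, 26.1 to 55.1), a log2 ratio of -0.12 (-1.67 to 1.17). By rule it was called higher at 1.36, with 160 UMIs in 12 NK cells. Nr4a3, Nr4a1 and Ier2, immediate early genes that digestion can also induce, were higher by log2 2.23, 1.29 and 1.48, and by rule none of the 3 was called. Markers of structural and erythroid cells summed to 119 CPM in the 56 NK cells and 102 CPM in CD8 T cells, but by rule to 3875 CPM and 80.5 CPM. Gapdh was lower (log2 -1.11; by rule 0.23) and 1 of 13 tested glycolysis genes was called. Of 5 tested interferon-stimulated genes Isg20 and Ly6a were lower (log2 -3.22 and -2.88), with by rule values of 1.14 and 2.67.

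**Figure D5:**
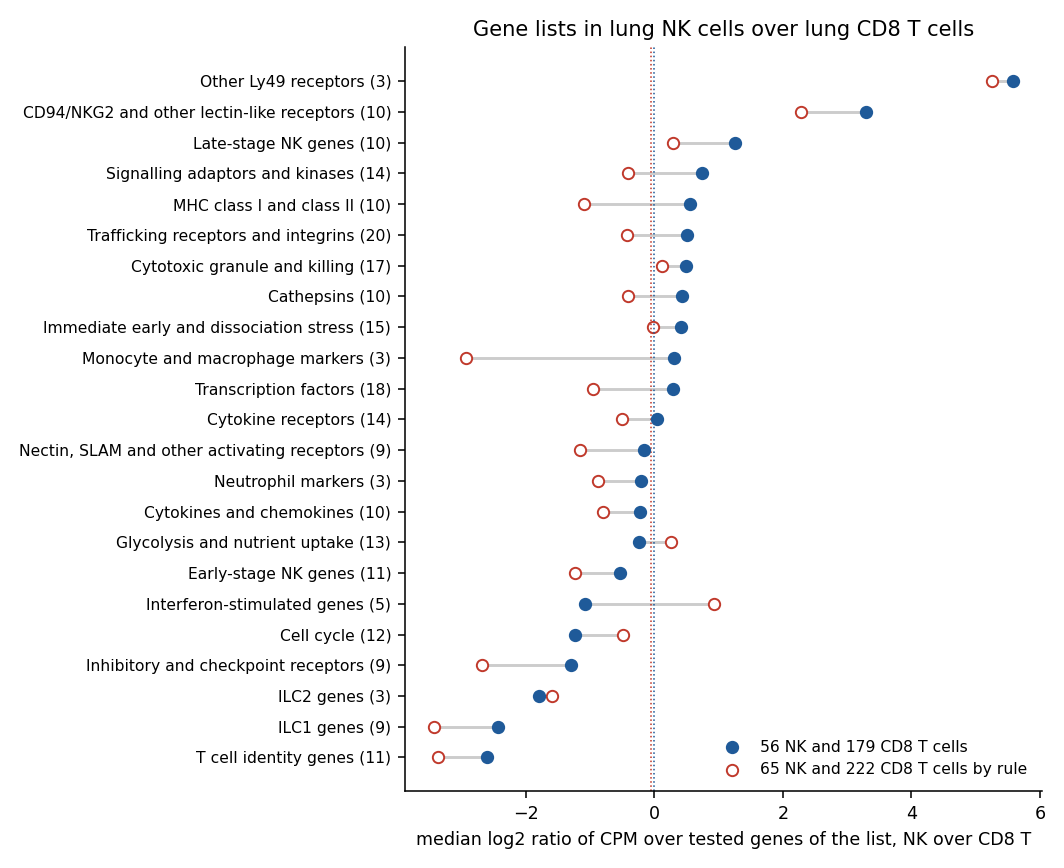
Median log2 ratio of CPM, NK over CD8 T cells (x axis), of the tested genes of each list, with the number tested in the 56 and 179 cells in brackets, for those cells (filled) and for all 65 and 222 cells by the rule (open). Dotted lines mark the medians over all tested genes, -0.01 and -0.06, lists with fewer than 3 tested genes in either choice of cells are not drawn, and of those drawn the monocyte and macrophage, interferon-stimulated and MHC lists move most.

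The 56 NK cells also varied among themselves. Of 462 genes with at least 50 UMIs in them, the variance between cells exceeded the Poisson value most for Rn18s, an rRNA-like gene, at 54.3 times, followed by Ccl5 at 27.9 and Gzma at 24.4 times. Ccl5 ran from 0 to 133 UMIs per cell and Gzma from 0 to 123, and the cell with the most Gzma held 10.1% of its UMIs. The next genes were Fth1, Tmsb4x, Lars2, Dock2, Malat1, Cmss1, Fgf13, Gm2682 and AW112010, down to 8.72 times. Fgf13, a fibroblast growth factor homologue, was seen in 16 cells, and 32.2% of its 59 UMIs lay in 1 cell. Across the 56 cells, which share 1 library and differ in depth, the CPM of Gzma and Ccl5 had a Spearman correlation of 0.69 and that of Gzma and Prf1 of 0.55, as descriptions.

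The NK cells held 0.494% of the UMIs of kept lung cells. Of 18121 genes with at least 10 lung UMIs, 15 had 50% or more of theirs in these 56 cells. Because the cells were chosen by 4 of these 15 genes, the shares describe that choice and are no separate evidence. The share was 83.3% for Klra14-ps, 61.2% for Klra7, 59.6% for Klra9, 56.5% for Klra13-ps and 53.3% for Klrc2, besides the 4 genes of the rule. As 74.9% of the Klra8 words above occur in Klra14-ps, its counts are not independent of a rule gene. Outside the receptors it was 54.7% for Adamts14, 90% for Serpinb9b with 9 of 10 UMIs, 72.7% for Khdc1a with 8 of 11 and 50% for Fam184a with 19 of 38, all named after their values were seen. Gzma and Prf1, which T cells share, had 46.8% and 44.5% of their lung UMIs in NK cells.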

How the data were processed

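The authors deposited unnormalized UMI counts for 55416 features in each barcode. Cell Ranger 7.0.1 and GRCm39 are named in the submitters' processing notes, while annotation release, intron counting and cell calling are not given in the sources used here, and counts in overlapping genes can be shared. The lowest deposited barcode held 500 UMIs, and 10437 cells of both libraries passed the limits on genes and mitochondrial UMIs.

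Counts of a population were summed and given as CPM with exact Poisson intervals. The ratio of 2 populations had an exact conditional binomial interval and shares had Clopper-Pearson intervals, all at 95%, so the depth of each value is carried by its interval. PCR duplicates were already collapsed to UMIs. Genes with at least 20 UMIs over both populations counted as tested, which here means only that the size rule was applied. A population without a UMI was set against a floor of 3 UMIs over the population, also in list medians. Folds against this floor are a convention, and the 95% interval can reach smaller values. Alternatives for filters, thresholds, depth and cell choice were run, 2 of them chosen after seeing the data. Doublet removal is not mentioned in the labels. Cells were scored against simulated doublets (2 per cell, 30 components, 50 neighbours), and the scores were used as an alternative. Lung B cells had at least 2 UMIs of Cd79a, at least 1 of Ms4a1, none of CD3 genes and fewer than 5 of Lyz2. Cells, genes and the 29 lists were chosen with earlier results of these data known. Genes named outside the lists were the 15 highest and 15 lowest called, leaving out the rule's genes and unnamed loci, from which examples were taken, and the 12 most variable. The size rule was tried on simulated counts with Poisson error only. These lacked the spread between cells described above, so they cannot show how the rule acts on these data. Tcrg-C1 was not found under that name. Promoter and transcript sequences came from RefSeq (GRCm38.p6) and GENCODE and were aligned with Biopython 1.88. Scripts used Python 3.11.15, numpy 2.4.6, scipy 1.17.1 and scikit-learn 1.9.0. Results for some genes of the lists are not reported here.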

Additional observations from a re-analysis of the deposited data

How the results depend on the processing

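The counts of called genes and the NK share were recomputed under 17 alternatives, 2 of them chosen after seeing the data. No paired analysis was possible because each tissue has 1 library and no test was run. The NK share of kept lung cells stayed within its interval under the 7 alternatives that apply to it. Against 263 genes higher and 598 lower by the rule, thinning each cell to 1000 UMIs left 50 higher and 80 lower, and the 4-fold size rule left 67 higher and 289 lower, both by construction a harsher limit. Lower genes fell to 238 without the deepest 5% of cells, to 259 without the cells with epithelial markers and to 227 with the matched exclusions in both populations. The other counts stayed within 1.5 times. Of 53 named genes 5 turned in sign from a called value. A further 193 of 901 recomputed gene ratios fell outside their interval by the rule, and 108 of 413 recomputed list medians moved beyond a set limit. Other genes that turned above, such as H2-Eb1, were not among the 53. The alternatives started from the 65 and 222 cells by the rule, so levels in the 56 and 179 cells were not varied in this way. Zeb2 turned to 0.53 with Cd79a and Lyz2 limits on the CD8 T cells, 0.63 for the mean of each cell's own CPM, 0.76 without the deepest cells, 1.03 after thinning and 1.82 with matched exclusions. H2-Aa turned to 0.72 and 1.48, and H2-Ab1 to 0.96 and 1.79, under the CD8 T cell limits and the matched exclusions, and H2-Ab1 to 0.057 after thinning. Ccl3 turned to 0.49 with matched exclusions. Ctsl turned to -1.07 without the cells with epithelial markers and to -0.12 with matched exclusions. For the Zeb2, MHC and Ccl3 values the cause was not tested, while for Ctsl most NK counts lay in the 5 cells left out. In the 56 NK cells the floor of 3 UMIs for a gene without a UMI is 17.8 CPM. The animals behind the library, and so the spread between animals, are unknown.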
